A study of Homo sapiens with 18 samples.

Results

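Mitotic kinases and the spindle checkpoint were followed here through 10 genes, AURKA, AURKB, PLK1, NEK2, TPX2, BUB1, BUB1B, TTK, MAD2L1 and CDC20, taken by symbol from a table of 58302 genes. RNA was sequenced from TPC1, a human papillary thyroid carcinoma line, and from D11, a Dicer1 (+/-) clone that was derived from TPC1 by CRISPR-Cas9. Each line was left non-transfected (NT), received a negative control siRNA (NC) or received siRNA against Dicer1 (siDicer), with siRNA at 5 nM, and RNA was collected on day 4 after transfection. Each of these 6 groups held 3 libraries, and NT with NC made up the control group of a line (6 libraries). D11 is 1 monoclonal line, so an effect of the heterozygous genotype and a trait of this clone cannot be told apart. Both lines descend from the same tumour cells, and the siDicer groups keep some DICER1 message.

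The libraries held 11.3 to 23.2 M reads, with a median of 15.9 M, and values are normalised read counts per 20 M reads. For 12 of the 18 samples the title and the description disagree on the group. The description, which the table's columns also carry, was followed. DICER1, the enzyme that cuts miRNA precursors and the target of the siRNA, was read first. DICER1 read 1582, 1510 and 1397 in the TPC1 NT libraries (replicates 1, 2 and 3 in that order), 2492, 1901 and 2366 after NC and 255, 395 and 246 after siDicer. The D11 readings were 655, 1157 and 923 in NT, then 1536, 1433 and 1407 after NC and 297, 451 and 277 after siDicer. No siDicer library reached the lowest control library of its line, and siDicer libraries kept on average 15.9% of the control level in TPC1 and 28.8% of it in D11. Of the thyroid follicular markers PAX8 was high (7361 to 14886), TG and FOXE1 were low (32 to 124 and 61 to 214), and NKX2-1, TSHR and SLC5A5 did not exceed 2 in any library. Of the epithelial markers, KRT8 (5715 to 13581) and KRT18 (2908 to 6564) were high, KRT7 was low (150 to 455), and KRT19, EPCAM and CDH1 did not exceed 8. KRT7 rose after siDicer in TPC1 by 0.82 on the log2 scale (limma adjusted p = 0.0231) and was at 0.34 in D11 (adjusted p = 0.222). Endothelial markers did not exceed 12 and the leukocyte markers PTPRC and CD3E did not exceed 4, while CD68 was at 763 to 1960.

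Progress through mitosis is driven by a small set of kinases. Aurora A, switched on and brought to the spindle by TPX2, and the polo-like kinase PLK1 mature the centrosomes and build the spindle, NEK2 separates the centrosomes, and Aurora B works at centromeres within the chromosomal passenger complex. The spindle checkpoint, with TTK, BUB1, BUB1B and MAD2L1, holds CDC20 back until every chromosome is attached, after which CDC20 activates the anaphase promoting complex. Transcripts of most of these genes accumulate late in the cell cycle, so their level in a bulk sample follows both the share of cells in G2 and mitosis and the amount of RNA per cell, and fewer such cells and less RNA in each cannot be told apart here.

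All 10 genes were well expressed. Per kb of annotated exon, CDC20 had the highest level in the TPC1 control group, with 2598 ± 483 normalised reads per kb (SD, n = 6). TPX2 followed with 1692 ± 196 and AURKA with 1015 ± 142 reads per kb. PLK1 (753 ± 89.9) and AURKB (718 ± 118) did not differ beyond their spread, nor did BUB1 (570 ± 62.3), BUB1B (554 ± 62.0) and NEK2 (503 ± 14.9). MAD2L1 (396 ± 46.1) and TTK (294 ± 60.1) were the lowest by this measure. The order in D11 control libraries was the same, from 2964 ± 449 reads per kb for CDC20 to 301 ± 62.4 for TTK. The lengths take all annotated exons of a gene, 2012 bases for CDC20 and 5517 for MAD2L1. Transcripts in these cells may be shorter, so the order between genes depends on the lengths used.

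Most of these genes were lower after siDicer in both lines. A gene was called at a limma adjusted p under 0.05, over all genes tested, with a fold change of at least 1.5. In TPC1, 7 of the 10 genes were called lower and none higher, where 4.16% of 18475 genes were called lower and 3.22% higher. In D11, 9 of the 10 were called lower and none higher, where 6.75% of 18413 genes were called lower and 5.26% higher. The median log2 change of the 10 genes was -0.69 in TPC1 and -0.78 in D11, against -0.04 over all genes in each line. Higher genes were 43.6% of all calls in TPC1 and 58.4% under TMM scaling. With TMM scaling 6 of the 10 genes were called lower in TPC1, where 591 of 18311 genes were. All siDicer libraries lay below all control libraries for 7 of the 10 genes in TPC1, where 9.91% of all genes did so, and for 9 of the 10 in D11, where 14.1% did so. Each comparison joins NT and NC as its control, and the paragraphs on single genes give the libraries one by one.

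**Figure D1:**
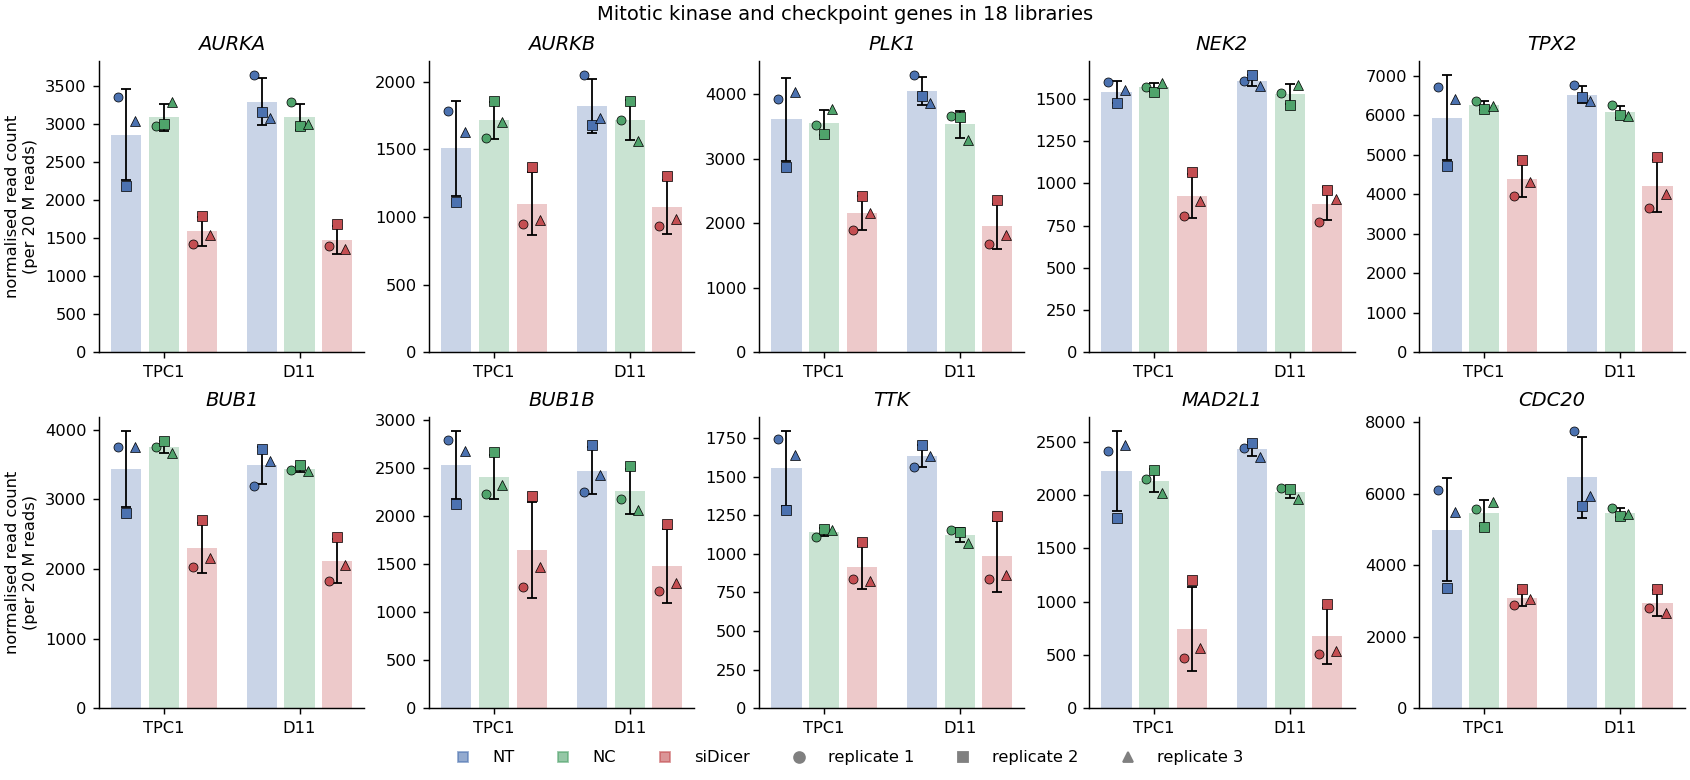
Normalised read counts (y axis, per 20 M reads, from 0) of the 10 genes in TPC1 and D11, with NT in blue, NC in green and siDicer in red. Bars are means, error bars SD (n = 3) and points single libraries by replicate; MAD2L1 shows the lowest siDicer bars relative to control, 34.2% of the control mean (TPC1) and 30.3% (D11).

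AURKA (Aurora A) is at 56369389 to 56392337 of chromosome 20 (GRCh38, minus strand). TPC1 levels of AURKA were 3349, 2190 and 3040 without transfection, 2973, 2993 and 3287 with NC and 1428, 1795 and 1547 with siDicer. D11 levels of AURKA were 3642, 3150 and 3078 without transfection, 3283, 2973 and 2999 with NC and 1393, 1691 and 1353 with siDicer. Every siDicer library was below every control library of its line, and the 2190 of TPC1 NT replicate 2 was the control value nearest to them. The log2 change was -0.90 (SE 0.13, adjusted p = 0.00267) in TPC1 and -1.11 (SE 0.10, adjusted p = 6.19e-05) in D11, which made AURKA the second most lowered of the 10 in each line after MAD2L1. The siDicer means were 53.5% and 46.4% of the control means.

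TPX2, the protein that activates Aurora A and loads it onto spindle microtubules, is at 31739271 to 31801805 of chromosome 20 (plus strand). For TPX2, TPC1 libraries gave 6716, 4711 and 6404 when not transfected, 6376, 6149 and 6244 with NC and 3963, 4880 and 4320 with siDicer. D11 libraries gave 6762, 6456 and 6352 when not transfected, 6271, 6011 and 5977 with NC and 3659, 4935 and 4010 with siDicer. The change of TPX2 was smaller than that of its partner AURKA. In TPC1, NT replicate 2 lay within the siDicer range, and the log2 change of -0.47 (SE 0.11, adjusted p = 0.0213) was short of the 1.5-fold minimum, so it was not called. In D11 the groups did not overlap and TPX2 fell by 0.60 on the log2 scale (SE 0.10, adjusted p = 0.00147). That fold lay at the limit, and under TMM scaling (-0.56), RLE scaling (-0.55) or with NC alone as control (-0.55) the D11 change was below it. It was also below it without D11 NT replicate 1 (-0.58), siDicer replicate 1 (-0.50) or siDicer replicate 3 (-0.57).

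AURKB (Aurora B), the kinase of the chromosomal passenger complex, is at 8204733 to 8210600 of chromosome 17 (minus strand). AURKB read 1785, 1109 and 1626 in the TPC1 NT libraries, 1582, 1855 and 1702 after NC and 952, 1368 and 976 after siDicer. The D11 readings were 2049, 1678 and 1732 in NT, then 1718, 1859 and 1564 after NC and 930, 1303 and 985 after siDicer. In TPC1 the groups overlapped, because NT replicate 2 (1109) lay below siDicer replicate 2 (1368). There the log2 change of -0.55 (SE 0.17) missed the threshold at an adjusted p of 0.0501 and was also short of the minimum fold. Without TPC1 NT replicate 2 it was -0.66 with an adjusted p of 0.00565, and without siDicer replicate 2 it was -0.72 with an adjusted p of 0.0172. With NC alone as control it was -0.66 and was called (adjusted p = 0.0336). In D11 AURKB fell by 0.73 on the log2 scale (SE 0.12, adjusted p = 0.00158), with no overlap.

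PLK1, the kinase of mitotic entry and centrosome maturation, is at 23677656 to 23690367 of chromosome 16 (plus strand), where it overlaps 2 genes of the minus strand, ERN2 and a long non-coding RNA. TPC1 levels of PLK1 were 3926, 2865 and 4032 without transfection, 3515, 3383 and 3775 with NC and 1897, 2419 and 2161 with siDicer. D11 levels of PLK1 were 4295, 3973 and 3868 without transfection, 3656, 3641 and 3294 with NC and 1682, 2352 and 1816 with siDicer. The groups did not overlap in either line. PLK1 fell by 0.73 on the log2 scale in TPC1 (SE 0.12, adjusted p = 0.00406) and by 0.97 in D11 (SE 0.12, adjusted p = 0.00025).

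NEK2, the kinase that separates the centrosomes before mitosis, is at 211658657 to 211675630 of chromosome 1 (minus strand), and a processed pseudogene, FDPSP8, lies within it. It was the steadiest of the 10 among control libraries, with 1599, 1474 and 1552 in TPC1 NT and 1573, 1539 and 1595 in TPC1 NC, against 810, 1067 and 896 in siDicer. D11 libraries gave 1606, 1642 and 1575 when not transfected, 1534, 1464 and 1582 with NC and 772, 964 and 906 with siDicer. Both lines showed a wide gap between the groups. The log2 change was -0.76 in TPC1 (SE 0.09, adjusted p = 0.00105) and -0.84 in D11 (SE 0.09, adjusted p = 0.000184).

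BUB1, a checkpoint kinase that docks its partners at kinetochores, is at 110637528 to 110678063 of chromosome 2 (minus strand). BUB1 read 3759, 2801 and 3753 in the TPC1 NT libraries, 3756, 3837 and 3664 after NC and 2030, 2705 and 2151 after siDicer. The D11 readings were 3199, 3721 and 3546 in NT, then 3425, 3493 and 3409 after NC and 1832, 2460 and 2051 after siDicer. The groups did not overlap, although TPC1 NT replicate 2 and siDicer replicate 2 nearly met. BUB1 fell by 0.65 on the log2 scale in TPC1 (SE 0.12, adjusted p = 0.00761) and by 0.72 in D11 (SE 0.10, adjusted p = 0.000568). The TPC1 call was lost with NT alone as control (log2 change -0.58, adjusted p = 0.0626), without siDicer replicate 1 (-0.57, adjusted p = 0.0564) and without siDicer replicate 3 (-0.61, adjusted p = 0.0574).

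BUB1B (BubR1), which joins MAD2L1 in the complex that inhibits CDC20, is at 40161023 to 40221123 of chromosome 15 (plus strand), and shares its locus with PAK6 and the readthrough gene BUB1B-PAK6, so its value is uncertain to the extent that reads were divided among them. TPC1 levels of BUB1B were 2798, 2129 and 2679 without transfection, 2233, 2665 and 2324 with NC and 1261, 2215 and 1474 with siDicer. D11 levels of BUB1B were 2254, 2742 and 2433 without transfection, 2181, 2523 and 2070 with NC and 1218, 1923 and 1309 with siDicer. In TPC1, siDicer replicate 2 lay above NT replicate 2, so the groups overlapped, while in D11 they did not. The log2 change in TPC1 was -0.62 (SE 0.16, adjusted p = 0.0281), and this call was the least stable of the 7. Under TMM and RLE scaling the TPC1 change was -0.55 and -0.57, under the minimum fold, and with NC alone or NT alone as control it was -0.58 and -0.65 with an adjusted p of 0.0974 and 0.0953. The TPC1 call was also lost without siDicer replicate 1 (-0.44) or 3 (-0.56), NT replicate 1 (-0.58) or 3 (-0.59), or NC replicate 2 (-0.59), at adjusted p of 0.158, 0.138, 0.0591, 0.0582 and 0.0527. In D11 BUB1B fell by 0.70 on the log2 scale (SE 0.14, adjusted p = 0.00438). Without siDicer replicate 1 the D11 change was -0.57, under the minimum fold.

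TTK (MPS1), the kinase at the top of the checkpoint, is at 80003887 to 80042527 of chromosome 6 (plus strand). For TTK, TPC1 libraries gave 1746, 1281 and 1638 when not transfected, 1109, 1158 and 1152 with NC and 834, 1075 and 825 with siDicer. D11 libraries gave 1562, 1707 and 1632 when not transfected, 1154, 1141 and 1070 with NC and 839, 1246 and 865 with siDicer. TTK alone among the 10 genes had its NC libraries below its NT libraries in both lines, and its siDicer mean was nearer to NC than to NT. In D11 siDicer replicate 2 lay above all NC libraries. TTK was called in neither line: the log2 change was -0.55 in TPC1 (SE 0.16, adjusted p = 0.0459, under the minimum fold) and -0.48 in D11 (SE 0.18, adjusted p = 0.0691). Its size moved with the choice of control. Against NT alone it was -0.77 in TPC1 (adjusted p = 0.0343) and -0.75 in D11 (adjusted p = 0.00701), and against NC alone it was -0.33 (adjusted p = 0.107) and -0.21 (adjusted p = 0.358). It was called in TPC1 without NC replicate 1 (-0.60) or siDicer replicate 2 (-0.68), and in D11 without siDicer replicate 2 (-0.67).

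MAD2L1 (MAD2), the checkpoint protein that binds and sequesters CDC20, is at 120055623 to 120066858 of chromosome 4 (minus strand). MAD2L1 read 2418, 1790 and 2473 in the TPC1 NT libraries, 2150, 2238 and 2024 after NC and 470, 1199 and 568 after siDicer. The D11 readings were 2439, 2491 and 2362 in NT, then 2068, 2061 and 1961 after NC and 510, 977 and 541 after siDicer. Replicates 1 and 3 of siDicer lay far below every control library in both lines, and replicate 2 lay between. Mean levels in TPC1 went from 2182 ± 254 (SD, n = 6) in control to 746 ± 396 (SD, n = 3) in siDicer, and in D11 from 2230 ± 226 to 676 ± 261, a fold of 2.93 and 3.30 lower. The log2 change was -1.66 in TPC1 (SE 0.24, adjusted p = 0.00243) and -1.78 in D11 (SE 0.18, adjusted p = 0.000109). In log2 change, 45 of 18475 genes lay below MAD2L1 in TPC1 and 49 of 18413 in D11. For AURKA, next among the 10, the numbers were 544 and 364.

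CDC20, the activator of the anaphase promoting complex that the checkpoint restrains, is at 43358981 to 43363203 of chromosome 1 (plus strand). TPC1 levels of CDC20 were 6113, 3370 and 5486 without transfection, 5574, 5065 and 5754 with NC and 2874, 3331 and 3061 with siDicer. D11 levels of CDC20 were 7763, 5663 and 5941 without transfection, 5602, 5372 and 5437 with NC and 2797, 3340 and 2664 with siDicer. TPC1 NT replicate 2 (3370) lay just above the highest siDicer library (3331), so the groups did not overlap but nearly touched. CDC20 fell by 0.74 on the log2 scale in TPC1 (SE 0.16, adjusted p = 0.0145) and by 1.02 in D11 (SE 0.12, adjusted p = 0.000251). With NT alone as control the TPC1 change was -0.65 and was not called (adjusted p = 0.0947), nor was it without siDicer replicate 1 (-0.69, adjusted p = 0.0819) or replicate 3 (-0.73, adjusted p = 0.075).

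**Figure D2:**
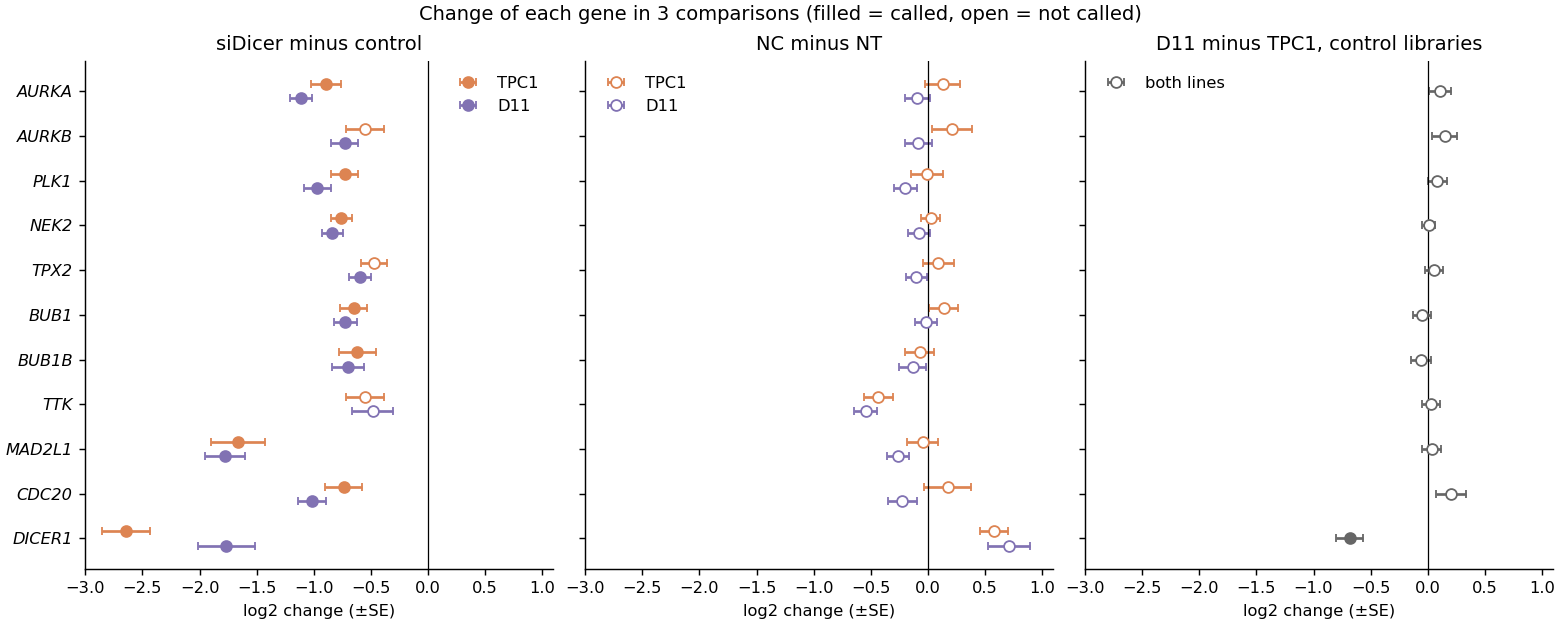
Log2 change (x axis, with SE) of the 10 genes and DICER1 for siDicer minus control, NC minus NT, and D11 minus TPC1 in control libraries, with TPC1 in orange, D11 in purple and filled points for called genes. The siDicer changes of the 10 genes run from -1.78 to -0.47, while in D11 minus TPC1 they run from -0.06 to 0.20 and DICER1 is at -0.68.

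Promoters are shown because genes that rise in G2 and mitosis are known to carry the cell cycle homology region (CHR), read by the MuvB complex, often near CCAAT boxes bound by NF-Y. Promoter sequence was taken from RefSeq on GRCh38.p14, 250 bases before to 50 after the start of transcription, and 7 of the 10 genes matched, without AURKA, TTK and TPX2. The letters TTTGAA and TTCGAA were searched as CHR and CCAAT as the other motif, on both strands, and no match overlapped another. A CHR spelling was found in 5 of the 7 genes, PLK1, BUB1, BUB1B, MAD2L1 and CDC20, and in 16.4% of 35116 promoters of the same length. The letters CCAAT were found in 6 of the 7 genes, all but BUB1B, and in 34.6% of those promoters. Positions count from the start of transcription, with -1 the base before it, and capitals in the sequences mark the motifs.
CDC20, -100 to -1, chr1:43358881-43358980, plus strand: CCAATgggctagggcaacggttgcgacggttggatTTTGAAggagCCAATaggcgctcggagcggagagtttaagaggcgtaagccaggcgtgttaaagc
BUB1, -100 to -1, chr2:110678064-110678163, minus strand: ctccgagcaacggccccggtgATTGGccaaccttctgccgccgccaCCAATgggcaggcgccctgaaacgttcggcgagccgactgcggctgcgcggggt
BUB1, -11 to 19, chr2:110678045-110678074, minus strand: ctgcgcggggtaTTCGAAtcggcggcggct
PLK1, -41 to -12, chr16:23678848-23678877, plus strand: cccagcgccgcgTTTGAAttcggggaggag
BUB1B, -35 to -6, chr15:40161034-40161063, plus strand: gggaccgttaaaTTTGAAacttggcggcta
MAD2L1, 13 to 42, chr4:120066807-120066836, minus strand: tgcgtcgttactTTTGAAacgcttggcggg
NEK2, -100 to -1, chr1:211675622-211675721, minus strand: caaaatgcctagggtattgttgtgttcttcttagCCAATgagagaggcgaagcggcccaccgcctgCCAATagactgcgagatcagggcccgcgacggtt

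CDC20 held a CHR spelling at -65 to -60 between CCAAT boxes at -100 to -96 and -55 to -51, and another farther upstream at -178 to -173. PLK1 and BUB1B held it just before the start, at -29 to -24 and -23 to -18. By GENCODE all 30 bases of both windows lie in an annotated exon, and the gene of that exon was not recorded. In BUB1 and MAD2L1 it lay past the start of transcription, at 2 to 7 and at 25 to 30, the latter the farthest downstream of the 5. NEK2, with a log2 change of -0.76 and -0.84, held CCAAT at -66 to -62 and -34 to -30 and no CHR spelling in this window. AURKB held CCAAT on the opposite strand and no CHR spelling. A match is a match of letters, and none of these files measured binding.

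Among the siDicer libraries, replicate 2 kept the highest level of all 10 genes in both lines. DICER1 was also highest there, at 21.1% of the control mean in TPC1 against 13.6% and 13.1% in replicates 1 and 3, and 38.0% in D11 against 25.1% and 23.4%. The gap was wide for MAD2L1 in TPC1, with 55.0% of the control mean in replicate 2 against 21.5% and 26.0%. BUB1B kept 89.6% in TPC1 replicate 2 against 51.0% and 59.6%, and TTK kept 90.4% in D11 replicate 2 against 60.9% and 62.8%. CDC20 varied less, 55.0% to 63.7% in TPC1 and 44.7% to 56.0% in D11. With replicate 2 of all 3 groups of a line left out, each line had 10 of the 10 genes called lower, and MAD2L1 was at -2.13 and -2.06. This setting was added after the data were seen. The share of all genes called in it is not given here, so the count cannot be set against that share. Whether the lower loss of DICER1 had a part in the higher levels of replicate 2 was not tested.

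**Figure D3:**
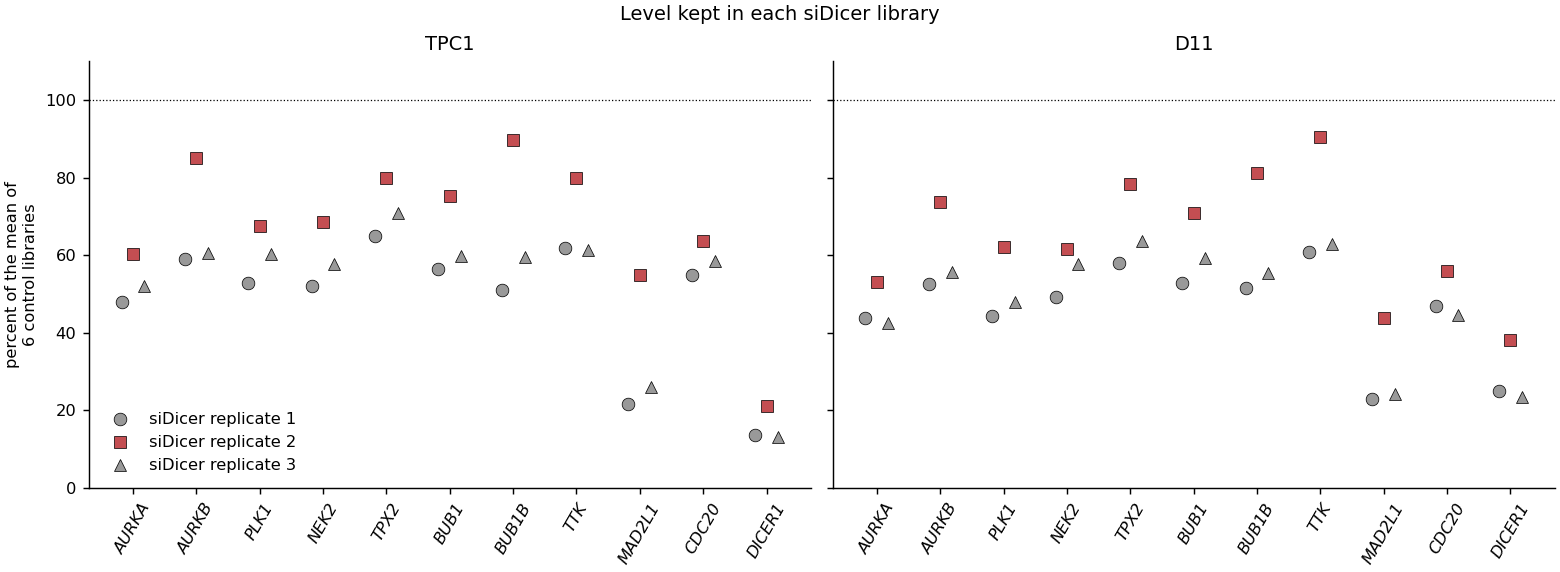
Level of each gene in the 3 siDicer libraries of TPC1 (left) and D11 (right) as a percent of the mean of the 6 control libraries of the line (y axis); replicate 2 is red and the dotted line is 100%. Replicate 2 lies highest for all 10 genes and DICER1 in both lines.

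Control libraries were not uniform either. In TPC1, NT replicate 2 was the lowest of the NT libraries for all 10 genes and the lowest of the 6 control libraries for 9 of them. On average over the 10 genes it was 0.32 below the mean of the TPC1 control group on the log2 scale, where the other 5 control libraries lay between -0.01 and 0.17. It narrowed the gap to siDicer, which averaged -0.97, -0.47 and -0.85 in replicates 1, 2 and 3. Without it 8 of the 10 genes were called in TPC1, and the share of all genes called in that fit is not given here. In D11 the control libraries lay between -0.14 and 0.13, and siDicer averaged -1.08 in replicate 1 and -0.60 in replicate 2, with replicate 3 between them.

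Levels were also compared within each library, which is free of library scaling. Against the mean log2 level of the other 9 genes, MAD2L1 was at -0.35 ± 0.08 (SD, n = 6) in TPC1 control libraries and at -1.35 ± 0.50 (SD, n = 3) in siDicer, and in D11 it went from -0.37 ± 0.06 to -1.36 ± 0.29. TPX2 was at 1.30 ± 0.05 in control and 1.62 ± 0.13 in siDicer in TPC1, and at 1.30 ± 0.05 and 1.63 ± 0.06 in D11. These values describe the same libraries as the changes above and were not tested.

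**Figure D4:**
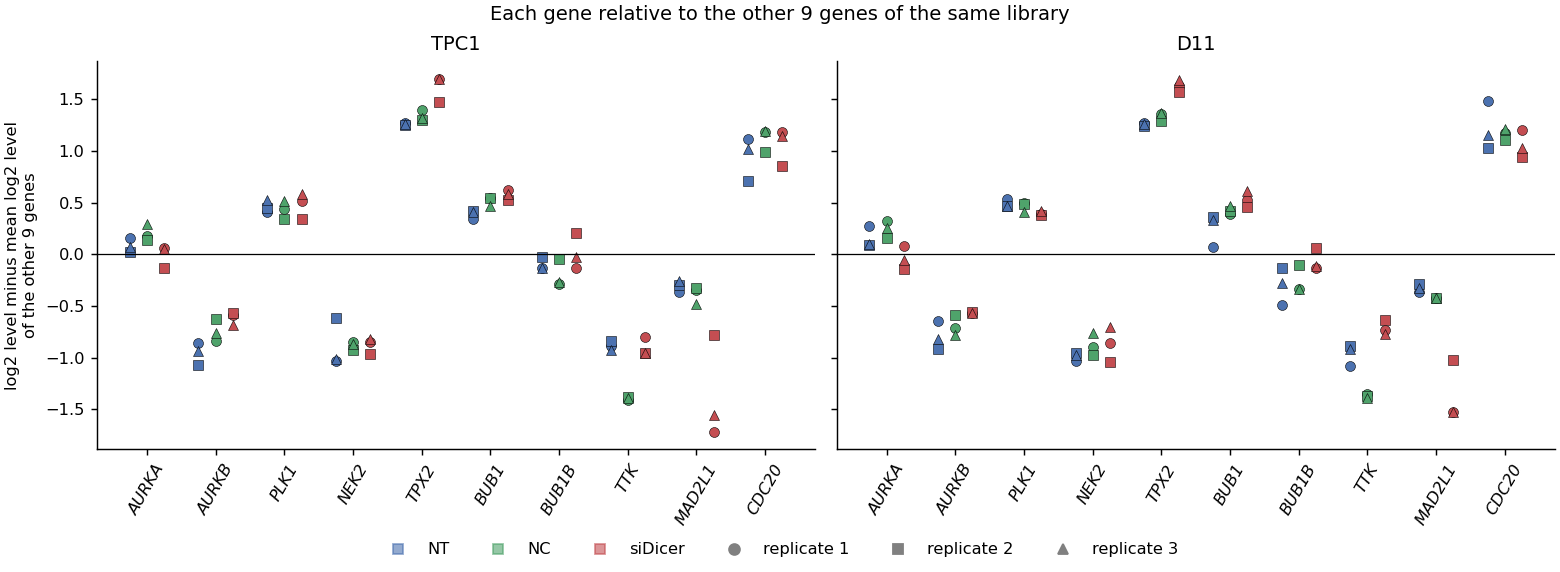
Log2 level of each gene minus the mean log2 level of the other 9 genes of the same library (y axis) in TPC1 (left) and D11 (right), with NT in blue, NC in green, siDicer in red and marker shapes for replicates. MAD2L1 drops in siDicer, from -0.35 to -1.35 on average in TPC1, and TTK sits lower in NC than in NT, with NC at -1.41 to -1.36 over both lines.

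Of 3 ratios tested in each line, the log2 ratio of AURKA to AURKB was 0.89 ± 0.10 (SD, n = 6) in TPC1 control libraries and 0.55 ± 0.14 (SD, n = 3) in siDicer. In D11 it was 0.85 ± 0.10 and 0.47 ± 0.10. The difference of -0.34 and -0.38 had a two-sided exact permutation p of 0.0238 in each line, the smallest that 3 against 6 libraries allow, and 0.0476 adjusted over the 6 tests. Every siDicer library was below every control library for this ratio. The ratio of CDC20 to MAD2L1, checkpoint target over inhibitor, was higher in siDicer by 0.93 on the log2 scale in TPC1 (exact permutation p = 0.0476, adjusted 0.0714) and by 0.76 in D11 (exact permutation p = 0.0238, adjusted 0.0476). In TPC1 the groups overlapped, with siDicer replicate 2 at 1.47 and the highest control library at 1.51, and the ratio missed the threshold after adjustment. The ratio of BUB1 to BUB1B differed by -0.03 in TPC1 (exact permutation p = 0.786) and by -0.02 in D11 (exact permutation p = 0.762), less than its spread of 0.11 to 0.20 within groups. With NC alone as control, 3 against 3 libraries cannot reach 0.05. Nor can a test that exchanges labels only among libraries of the same replicate number, which has 27 arrangements. It gave an exact permutation p of 0.0741, the smallest it allows, and 0.111 adjusted for the ratios of AURKA to AURKB and of CDC20 to MAD2L1 in each line, so none passed in that test.

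Transfection itself was read from NC against NT. None of the 10 genes was called in TPC1, where 0.111% of 18008 genes were called, nor in D11, where 0.35% of 17992 were. In D11 all 10 had a log2 change below 0, with a median of -0.12 against 0.02 over all genes. In TPC1 4 of the 10 did, with a median of 0.06 against 0.0014. The shares of all genes below 0 are not given here. TTK had the widest difference, with a log2 change of -0.44 in TPC1 (SE 0.13, adjusted p = 0.255) and -0.54 in D11 (SE 0.10, adjusted p = 0.0687). At an unadjusted p under 0.05 TTK was the only one of the 10 in TPC1, and MAD2L1 joined it in D11 with -0.26 (SE 0.09, adjusted p = 0.286). Over all genes, 2003 of 18008 in TPC1 and 2447 of 17992 in D11 had an unadjusted limma p under 0.05. The counts among the 10 are near those shares. All NC libraries lay below all NT libraries for 1 of the 10 genes in TPC1, against 8.33% of all genes. In D11 they did so for 5 of the 10, PLK1, TPX2, TTK, MAD2L1 and CDC20, against 9.03% of all genes. DICER1 had higher values in NC than in NT in both lines, by 0.58 (SE 0.12, adjusted p = 0.133) and 0.71 (SE 0.18, adjusted p = 0.153), and was not called. With replicate numbers as a block, DICER1 passed in D11 (adjusted p = 0.046).

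The heterozygous clone was compared with its parent in the 12 control libraries. DICER1 was lower in D11 by 0.68 on the log2 scale (SE 0.12, adjusted p = 0.00561), and the call was lost without D11 NT replicate 1, where the change was -0.58 and under the minimum fold. None of the 10 genes was called, where 1.02% of 18814 genes were. Their log2 changes lay between -0.06 and 0.20, with a median of 0.04. None of the 10 passed an unadjusted limma p of 0.05, which is near the share of all genes, 1853 of 18814. CDC20 had the widest difference, 0.20 higher in D11 (SE 0.13, adjusted p = 0.63), and for all 10 genes the control ranges of the lines overlapped. The share of all genes whose control ranges overlapped is not given here, so this count cannot be set against it. The same control libraries serve the siDicer comparisons.

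Whether the siDicer change differed between the lines was tested over 18 libraries by the interaction of line and condition. None of the 10 genes was called, and no gene of the 19181 tested was, 0.0% of them, though 133 genes had an unadjusted limma p under 0.05. For 9 of the 10 genes the change was more negative in D11, by -0.28 for CDC20 (SE 0.21, unadjusted p = 0.201) at the most. The higher number of calls in D11 than in TPC1 therefore does not show a difference between the lines. The DICER1 change was less negative in D11, by 0.88 on the log2 scale, and was not called (SE 0.36, unadjusted p = 0.0233, adjusted p = 1).

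The rest of the mitotic machinery was read from lists written by hand. Among 9 partners of the Aurora and Polo kinases, TPC1 had 2 called lower and D11 had 7, against 4.16% and 6.75% of all genes, with medians of -0.50 and -0.68. HMMR, a microtubule protein that binds TPX2, fell by 1.01 on the log2 scale in TPC1 (adjusted p = 0.00667) and by 1.19 in D11 (adjusted p = 0.000422). FAM83D, which recruits casein kinase 1 to the spindle with HMMR, fell by 0.71 (adjusted p = 0.0197) and 0.86 (adjusted p = 0.000248). In D11 the other 5 called were the passenger complex subunits INCENP, BIRC5 and CDCA8, the Aurora A activator BORA and the Aurora A substrate TACC3. In TPC1 these 5 had log2 changes of -0.58 to -0.46, under the minimum fold, and were not called. Adjusted p there was 0.0292 for INCENP, 0.0277 for BIRC5, 0.0241 for BORA, 0.0299 for TACC3 and 0.0656 for CDCA8. The TPC1 call of FAM83D was lost without siDicer replicate 1 (-0.67, adjusted p = 0.0998) or replicate 3 (-0.67, adjusted p = 0.105). With NT alone as control the TPC1 calls of HMMR (-0.92, adjusted p = 0.0522) and FAM83D (-0.60, adjusted p = 0.121) were lost.

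Of 10 spindle checkpoint partners, the same 2 were called lower in each line, against 4.16% of all genes in TPC1 and 6.75% in D11. SGO1, which protects cohesin at centromeres, had 45.8% of its control mean left in TPC1 and 38.8% in D11, with log2 changes of -1.15 (adjusted p = 0.00255) and -1.37 (adjusted p = 8.53e-05). KNTC1, a subunit of the complex that brings MAD1 and MAD2 to kinetochores, had changes of -0.76 and -0.72. TRIP13, the ATPase that takes MAD2 out of its active form, was at -0.37 (adjusted p = 0.113) and -0.52 (adjusted p = 0.00428), under the minimum fold, and was called in D11 with NT alone as control (-0.64). MAD1L1, the direct partner of MAD2L1 at kinetochores, was at 0.26 and 0.00 and was called in neither line. KNTC1 and MAD1L1 were chosen after their values were seen.

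Among 11 other mitotic kinases, TPC1 had 2 called lower, and D11 had 3 called lower and 1 higher. Over all genes 4.16% were called lower in TPC1, and 6.75% lower and 5.26% higher in D11, so the 1 higher of 11 is near the share of all genes. PBK, a kinase active in mitotic cells, fell by 0.79 (adjusted p = 0.0141) and 0.91 (adjusted p = 0.00025) on the log2 scale, and NEK7, a relative of NEK2 with a part in spindle assembly, by 0.91 (adjusted p = 0.0309) and 0.87 (adjusted p = 0.00193). In TPC1, both calls were lost without siDicer replicate 1 (PBK -0.65, NEK7 -0.72) or replicate 3 (PBK -0.67, NEK7 -0.72), and that of NEK7 also without NT replicate 1 (-0.90, adjusted p = 0.0602) or NT replicate 3 (-0.91, adjusted p = 0.0568). NT alone as control ended both TPC1 calls (PBK -0.77, adjusted p = 0.0832, and NEK7 -1.07, adjusted p = 0.0702), and NC alone that of NEK7 (-0.74, adjusted p = 0.132). NEK6, a close relative of NEK7, went the opposite way and rose by 0.66 in D11 (adjusted p = 0.00385), while in TPC1 it was at 0.54 (adjusted p = 0.00616), under the minimum fold. In D11, NEK6 was not called with NC alone as control (0.49), and in TPC1 it was called under TMM scaling (0.60) and with NT alone as control (0.64). The third kinase lower in D11 was PKMYT1, an inhibitor of CDK1 (-0.76, adjusted p = 0.0138). WEE1, of the same list, was higher, at 0.54 in TPC1 (adjusted p = 0.00447) and 0.54 in D11 (adjusted p = 0.00273). Both WEE1 changes were under the minimum fold and were not called. PKMYT1 and WEE1 were named after their values were seen.

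Of 20 subunits, regulators and targets of the anaphase promoting complex, TPC1 had 2 called lower and D11 had 4, against 4.16% and 6.75% of all genes, with medians of -0.17 and -0.22. UBE2S, which extends ubiquitin chains for the complex, fell by 0.67 (adjusted p = 0.00296) and 0.96 (adjusted p = 0.00123) on the log2 scale, and PTTG1 (securin), which holds separase inactive until anaphase, by 0.79 (adjusted p = 0.0132) and 1.01 (adjusted p = 0.000535). The TPC1 call of PTTG1 was lost without siDicer replicate 1 (-0.62, adjusted p = 0.0825) or replicate 3 (-0.71, adjusted p = 0.0859). With NC alone as control the TPC1 calls of UBE2S (-0.57, under the minimum fold) and PTTG1 (-0.70, adjusted p = 0.0795) were lost. The other 2 in D11 were the ubiquitin-conjugating enzyme UBE2C and the inhibitor FBXO5. None of the 15 mitotic phosphatase genes was called in either line by limma, and their medians of -0.01 and -0.12 were near that of all genes. At an unadjusted limma p under 0.05 there were 4 of the 15 in TPC1 and 5 in D11. These counts are near the shares of all genes, 5629 of 18475 in TPC1 and 6542 of 18413 in D11. The smallest p in D11 belonged to PPP2R2A (-0.37, adjusted p = 0.00877) and PPP2R5C (-0.33, adjusted p = 0.0127), regulatory subunits of PP2A, both under the minimum fold.

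Of 12 transcription factor genes for G2 and mitosis, 1 was called lower in each line, near the shares of all genes (4.16% in TPC1 and 6.75% in D11). FOXM1, an activator of many mitotic genes, was at -0.52 in TPC1 (adjusted p = 0.0153), under the minimum fold, and fell by 0.70 in D11 (adjusted p = 0.000819). MYBL2, which joins the MuvB complex, was at -0.31 (adjusted p = 0.274) and -0.58 (adjusted p = 0.00326, under the minimum fold). In TPC1 the called gene was LIN54, the MuvB subunit that binds CHR (-0.64, adjusted p = 0.015), which was at -0.55 and uncalled in D11 and was named after its value was seen. Among the 5 proliferation markers the cyclins CCNB1 (-0.77 and -1.01, adjusted p = 0.005 and 0.000187) and CCNA2 (-0.67 and -0.86, adjusted p = 0.0126 and 0.000422) were called lower in both lines. MKI67 was at -0.49 and -0.51 (adjusted p = 0.044 and 0.0587) and TOP2A at -0.38 and -0.40 (adjusted p = 0.0284 and 0.0156). PCNA was at -0.31 and -0.35 (adjusted p = 0.131 and 0.0508). These 3 were under the minimum fold and were called in neither line. The TPC1 call of CCNA2 was lost without siDicer replicate 1 (-0.58, adjusted p = 0.0813) or replicate 3 (-0.63, adjusted p = 0.0779) and with NT alone as control (-0.57, adjusted p = 0.0886), and MKI67 was called without siDicer replicate 2 in TPC1 (-0.61) and in D11 (-0.70), and in D11 without NT replicate 1 (-0.62) or with NC alone as control (-0.60). FOXM1 was called in TPC1 without siDicer replicate 2 (-0.65), and MYBL2 in D11 without siDicer replicate 2 (-0.70), NC replicate 1 (-0.60) or NC replicate 3 (-0.60), or with NT alone as control (-0.65). Markers of proliferation thus had lower values beside the 10 genes, and the part of a changed share of dividing cells was not tested.

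**Figure D5:**
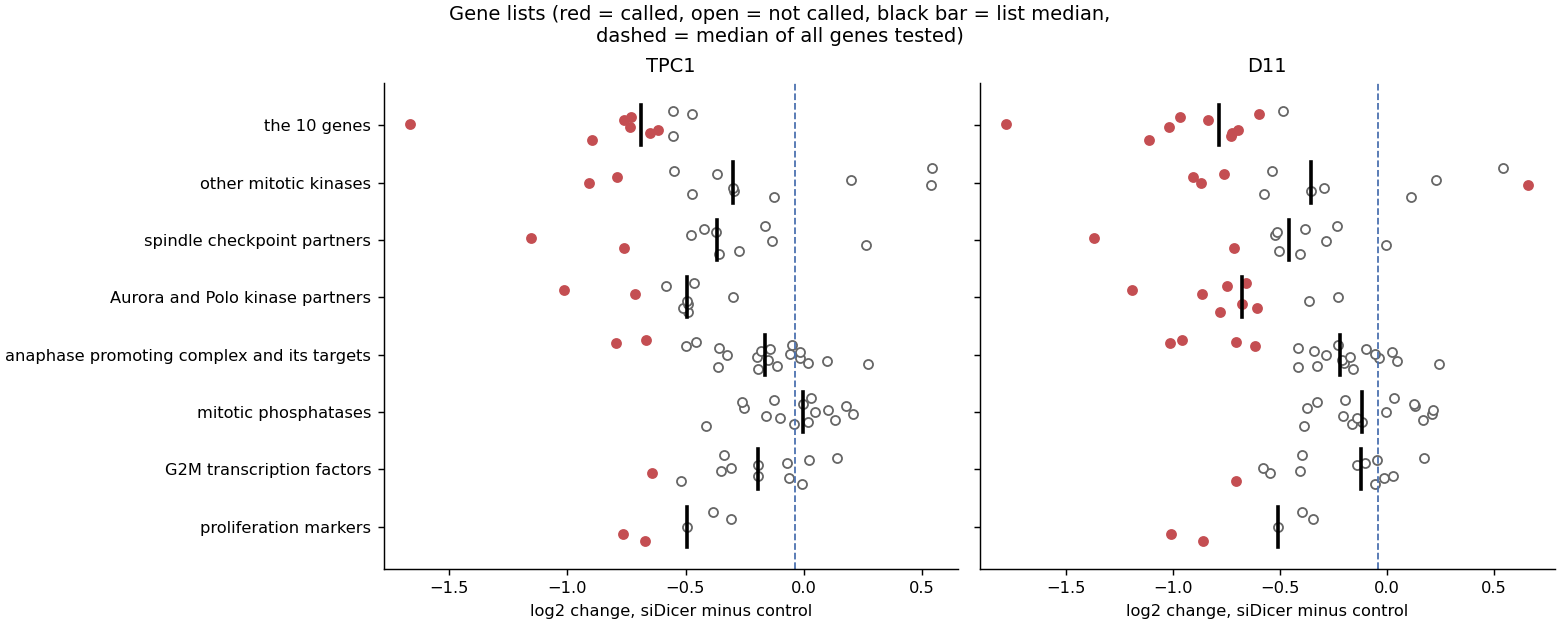
Log2 change of siDicer minus control (x axis) for the genes of 8 lists in TPC1 (left) and D11 (right); red points are called genes, open points are not, black bars are list medians and the dashed line is the median of all genes tested. The 10 genes have the lowest medians, -0.69 and -0.78, and the phosphatases, at -0.01 and -0.12, lie nearest the dashed line.

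Across all 18 libraries, the genes whose log2 level was most like the mean standardised level of the 10 were ranked among 12508 genes with a mean of at least 100. Apart from the 10 themselves the nearest was SPAG5 (Pearson r = 0.991), which codes for the spindle protein astrin. Next came AC008870.3 (r = 0.984), RRM1, a subunit of ribonucleotide reductase (r = 0.984), NCAPH, a condensin subunit (r = 0.984), and AC005726.2 (r = 0.984). The points share their libraries, and the siDicer libraries lie apart from the others, so these values describe the ranking only. Because the genes were picked over libraries that include siDicer, lower siDicer levels are largely built into the choice. Their changes and calls below describe these genes and are not separate evidence. AC008870.3 is the long non-coding RNA on the minus strand within PLK1 (chromosome 16, 23687049 to 23687689), and AC005726.2 overlaps SPAG5 on the same strand, so reads of each pair may not be fully separable. SPAG5 fell by 0.78 on the log2 scale in TPC1 (adjusted p = 0.00523) and by 0.86 in D11 (adjusted p = 0.000396). AC008870.3 fell by 0.75 (adjusted p = 0.00779) and 0.92 (adjusted p = 0.000576), close to the 0.73 and 0.97 of PLK1. RRM1, NCAPH and AC005726.2 were also called lower in both lines, with log2 changes of -0.81 to -0.60. In TPC1, the calls of all but SPAG5 among these 5 genes were lost without siDicer replicate 1 (AC008870.3 -0.67, RRM1 -0.51, NCAPH -0.60, AC005726.2 -0.65) or replicate 3 (-0.70, -0.57, -0.62 and -0.63), and that of RRM1 also without NT replicate 1 (-0.55) or NT replicate 3 (-0.57). With NT alone as control the TPC1 calls of RRM1 (adjusted p = 0.0747), NCAPH (adjusted p = 0.101) and AC005726.2 (adjusted p = 0.0581) were lost. RRM1 was also under the minimum fold in TPC1 under TMM (-0.53) and RLE (-0.55) scaling, and with NC alone as control in TPC1 (-0.58) and D11 (-0.58).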

How the data were processed

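Poly-A selected, stranded RNA libraries were sequenced for 18 samples. As their methods and processing notes state, the authors mapped reads to GRCh38 with STAR 2.5.3a and counted them per Ensembl 90 gene with HTSeq 0.9.1, and the strand setting is not stated. The table the authors deposited holds a normalised score and not counts: reads scaled to 20 M per library and rounded up, with library totals of 20010707 to 20018484. Value steps gave the worth of 1 read (0.861 to 1.77) and the depth, and 16 libraries returned whole reads for 98.1% to 99.9% of values. No pair of replicates agreed within sampling noise (chi-square per degree of freedom of at least 5.12).

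Values were tested as log2(value + 1), which understates the change of low genes, with limma-trend 3.58.1 in R 4.3.3, on genes of at least 10 in at least 3 libraries of a fit, with Benjamini-Hochberg adjustment. The scripts were tested on simulated data. edgeR, which the authors name, and DESeq2 were not used, since the values are not counts. Ratios within a library were tested by exact permutation. p-values measure the spread between these samples, which may be technical: the authors state independent repeats for their experiments in general, but the labels do not say that the replicate libraries came from separate cultures. The members, the lists, the named genes and the tests were chosen with earlier results of these data known. Named genes were the 10 genes, DICER1, the proliferation markers, from each other pathway list the 2 genes with the smallest p in D11 and any called against the 10 genes' direction, and the 5 genes most like them. Replicate numbers were checked by the correlation of deviations from group means. In D11, 9 of 9 same-numbered pairs exceeded 0.1 (0.108 to 0.504), and in TPC1 8 of 9 did (0.0994 to 0.542). Over genes with a mean of at least 100, 8 of 9 did in D11 (0.064 to 0.718) and 9 of 9 in TPC1 (0.115 to 0.678). Among 18 differently numbered pairs, 3 in each line exceeded 0.1. Over the genes with a mean of at least 100, 4 in each line did. Libraries of the same number were thus mostly more alike, while the main tests treated them as unpaired. Results with the numbers as a block are given as an alternative. Positions and exon lengths come from GENCODE 44, and promoters from RefSeq.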

Additional observations from a re-analysis of the deposited data

Results flagged for a closer look

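Among the 6 control libraries of a line, 22 sets of values were checked for a library far from the others by Dixon's test, and 5 stood out, where chance gives about 1 in 20. In TPC1, NT replicate 2 was the low library for AURKA (2190), AURKB (1109), BUB1 (2801) and TPX2 (4711). In D11, NT replicate 1 was the high library for CDC20 (7763). The control groups join NT and NC, and the 4 TPC1 values come from 1 library, so they are not 4 separate observations. Without that library, 8 of the 10 genes were called in TPC1, and without D11 NT replicate 1, 8 were called in D11. The shares of all genes called in these 2 fits are not given here.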

How the results depend on the processing

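The count of genes called lower, 7 in TPC1 and 9 in D11, was 6 and 8 under TMM and under RLE scaling, 9 and 9 with no minimum fold, and 7 and 9 with either other pseudocount, either other filter, a fit of all 18 libraries or voom on recovered reads, which was added after seeing the data. With the replicate block it was 7 and 9, and the block changed no call among the 10 genes in any comparison. With 1 library left out at a time, TPC1 had 4 to 9 called and D11 had 7 to 10. The 4 came without TPC1 siDicer replicate 1 or replicate 3, which leaves fewer samples and keeps replicate 2, and the 9 without siDicer replicate 2. NC alone as control gave 7 and 8, and NT alone 5 and 10. Leaving out replicate 2 of all 3 groups of a line (added after seeing the data) gave 10 and 10. With NC alone as control, the ratio of AURKA to AURKB differed by -0.30 in TPC1 and -0.38 in D11 and that of CDC20 to MAD2L1 by 0.74 in D11, each at an adjusted exact permutation p of 0.2, since 3 against 3 libraries cannot reach the threshold. With the replicate block (added after seeing the data), labels were exchanged within replicate numbers only, the ratio of AURKA to AURKB kept its -0.34 and -0.38 and that of CDC20 to MAD2L1 its 0.76 in D11, and the adjusted exact permutation p was 0.111, since 27 arrangements cannot reach the threshold. Over all genes, TMM scaling turned the TPC1 split from 594 higher and 769 lower to 829 and 591. The shares of all genes called under the other settings above are not given here.

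Groups taken from the titles gave 0 called genes in TPC1 and 0 in D11, of the 10 and of all genes by limma, with 236 and 226 genes at an unadjusted p under 0.05. In TPC1 that grouping turned the log2 change to 0.0857 for AURKA, 0.136 for PLK1, 0.0117 for BUB1, 0.124 for CDC20, 0.0525 for TPX2, 0.131 for TRIP13, 0.0509 for FAM83D, 0.0254 for PPP2R2A, 0.0599 for FOXM1, 0.106 for MYBL2, 0.130 for MKI67, 0.0130 for TOP2A, 0.0031 for CCNA2, 0.0001 for SPAG5, 0.103 for AC008870.3, 0.0361 for RRM1 and 0.0441 for NCAPH. In D11 it turned NEK2 to 0.0349, TRIP13 to 0.0527 and MYBL2 to 0.0057. DICER1 was then at -0.13 in each line and not called. Depth was 11.3 M reads or more per library, and 3 libraries per group limit the precision more than the counts of these genes.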
